A study of Mus musculus with 16 samples.

Results

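Metalloproteases and their inhibitors were followed as 33 genes of the 8251 named on the array, chosen by gene symbol: 13 matrix metalloproteinases (Mmp), 3 tissue inhibitors of metalloproteinases (Timp), 16 members of the Adam family and 1 of the Adamts family. They had 43 of the 10833 probe sets that carry a single gene symbol, and each gene was read from the one of its probe sets whose mean log2 signal was highest. The tissue was retroperitoneal fat, a visceral depot, of mice without gonads, measured on 16 single-colour oligonucleotide arrays, 8 from females and 8 from males. Mice received 0.1 mg of dihydrotestosterone (DHT), a potent androgen, subcutaneously, or they received vehicle. Those given DHT were killed 1, 3 or 6 h (early) or 12, 18 or 24 h (late) afterwards. Each sex had 1 array at each of these times after DHT and 2 vehicle arrays. All animals, the vehicle groups included, were gonadectomised, and no group kept its gonads, so that sex and the kind of gonad removed cannot be told apart. The labels give no strain or age, and they attach a time of 24 h to the vehicle samples. By the labels' protocols, tissue from every mouse of a group was gathered before RNA extraction, and a single array may thus represent a pool. Arrays of different sexes or of different times after DHT come from different mice. The labels do not state that the 2 vehicle arrays of a sex are different animals, so the variation between those 2 may be wholly technical. The p-values speak only of variation among these samples, part of which may be technical.

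Matrix metalloproteinases are zinc enzymes that cut collagen, elastin and other proteins of the extracellular matrix, most of them secreted as inactive precursors and a few anchored in the cell membrane. Adam proteins are membrane-bound relatives, many of which cut growth factors, cytokines and receptors off the cell surface, and Adamts proteins are secreted relatives that act on proteoglycans and procollagens. Timp proteins bind the active site of these enzymes and hold them in check. In fat, this system remodels the collagen around adipocytes as the depot grows, and it is used by resident macrophages and by the progenitor cells of the stroma.

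Of the 33 genes, 18 reached the mean signal of 116.03 (a geometric mean over the 16 arrays, the 40th percentile of all probe sets) required for testing: 5 of 13 Mmp genes, all 3 Timp genes, 10 of 16 Adam genes and 0 of 1 Adamts gene. The other 15 had mean signals between 5.55 and 113.6, at which background makes up a larger share. On chromosome 9, 6 Mmp genes neighbour each other (Mmp13, Mmp12, Mmp3, Mmp10, Mmp8 and Mmp7, in RefSeq's order), of which Mmp12 and Mmp3 were measurable, while the signals of the other 4 stayed at or below 84.0 on every array.

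The promoters of 4 genes that had higher signals in female fat are shown: a secreted elastase (Mmp12), a secreted stromelysin (Mmp3), a membrane-bound collagenase (Mmp14) and an inhibitor (Timp1). Mmp3 passed the test only without male vehicle replicate 2. No Adam gene is shown, although Adam8, Adam12 and Adam19 were also higher in female fat. Each sequence runs from 250 bases before to 50 bases after the start site, on the plus strand of GRCm38.p6, from RefSeq. Mmp12 lies at chr9:7344147-7344446, Mmp3 at chr9:7445572-7445871, Mmp14 at chr14:54431348-54431647 and Timp1 at chrX:20869916-20870215. Capitals mark matches to the AP-1 site TGANTCA, to the androgen receptor half-site AGAACA or to the TATA box TATAAA, each searched on both strands.
Mmp12: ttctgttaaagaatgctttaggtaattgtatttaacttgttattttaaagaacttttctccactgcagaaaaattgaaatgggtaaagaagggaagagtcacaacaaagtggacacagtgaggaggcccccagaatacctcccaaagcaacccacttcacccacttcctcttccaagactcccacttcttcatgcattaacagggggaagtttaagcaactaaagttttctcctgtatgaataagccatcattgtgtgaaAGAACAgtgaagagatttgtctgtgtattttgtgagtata
Mmp3: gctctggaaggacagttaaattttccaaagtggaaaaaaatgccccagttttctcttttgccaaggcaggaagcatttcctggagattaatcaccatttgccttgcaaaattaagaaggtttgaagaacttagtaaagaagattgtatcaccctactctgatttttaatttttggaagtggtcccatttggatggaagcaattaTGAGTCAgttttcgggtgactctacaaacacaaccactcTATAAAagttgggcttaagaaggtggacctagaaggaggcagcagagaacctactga
Mmp14: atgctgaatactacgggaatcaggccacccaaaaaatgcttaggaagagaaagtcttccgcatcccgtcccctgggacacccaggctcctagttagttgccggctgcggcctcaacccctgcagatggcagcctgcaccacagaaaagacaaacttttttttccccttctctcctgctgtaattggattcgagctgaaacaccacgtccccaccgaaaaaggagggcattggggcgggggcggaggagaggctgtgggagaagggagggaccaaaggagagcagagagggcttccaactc
Timp1: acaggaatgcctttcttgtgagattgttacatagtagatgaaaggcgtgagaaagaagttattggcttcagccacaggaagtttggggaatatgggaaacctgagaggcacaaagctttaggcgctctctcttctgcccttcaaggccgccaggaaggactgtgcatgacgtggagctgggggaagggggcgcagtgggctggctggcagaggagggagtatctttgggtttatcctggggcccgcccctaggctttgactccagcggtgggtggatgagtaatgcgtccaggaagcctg
The Mmp3 promoter holds an AP-1 match whose first base is at position -46 and a TATA match at -7, counted from the start site at +1. The Mmp12 promoter holds 1 androgen receptor half-site, at +11, and the Mmp14 and Timp1 windows hold none of these letters. RefSeq entries of this kind were at hand for 20 of the 33 genes. Among these 20, 4 held the AP-1 site (Mmp3, Mmp7, Mmp10 and Mmp13), 4 the half-site (Mmp7, Mmp10, Mmp11 and Mmp12) and 6 the TATA box. The shares among all 32851 promoters of this length were 7.81% for AP-1, 19.0% for the half-site and 13.6% for TATA. A match describes letters and shows no binding.

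One array stood apart before any comparison was made. Male vehicle replicate 2 had correlations across genes of 0.606 to 0.701 with the remaining arrays, which had 0.877 to 0.978 among themselves, as a description over genes that are not independent. The summed signal of 13 skeletal muscle genes was 284690 on it, against 36661 to 63903 on the other 7 male arrays, and the sum of 8 adipocyte genes was 9715, against 65403 to 87343. Of the 18 tested metalloprotease and inhibitor genes, 11 had their lowest male signal on it. Results are therefore given for all 16 arrays and for the 15 without it. The female array at 12 h had a summed signal of 64855 over 5 exocrine pancreas genes, against 1867 to 4459 on the other female arrays. Without it, 5 genes of the set were called higher in females, against 6 with all arrays, and Adam12 was lost. Array medians lay between 184.1 and 219.5, and the number of arrays limits the precision.

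Female fat had higher signals than male fat for a set of matrix-degrading and shedding enzymes and for 1 inhibitor. With all 16 arrays 6 of the 18 tested genes were higher in females and 0 were lower, at an adjusted p under 0.05 (limma on log2(signal + 16), Benjamini-Hochberg over 5686 genes). The background was 4.63% of all tested genes higher and 1.13% lower. The 6 were Mmp12, Mmp14, Timp1, Adam8, Adam12 and Adam19. Adam8 met the required signal only through its female arrays, and with no such requirement the count was also 6. Without male vehicle replicate 2, 8 were higher and 0 lower, against 8.83% and 7.76% of all genes, with Mmp3 and Adam10 added. The median log2 difference of the 18 genes, female minus male, was 0.38 with 16 arrays and 0.44 with 15, and that of all tested genes was 0.02 and 0.00.

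**Figure D1:**
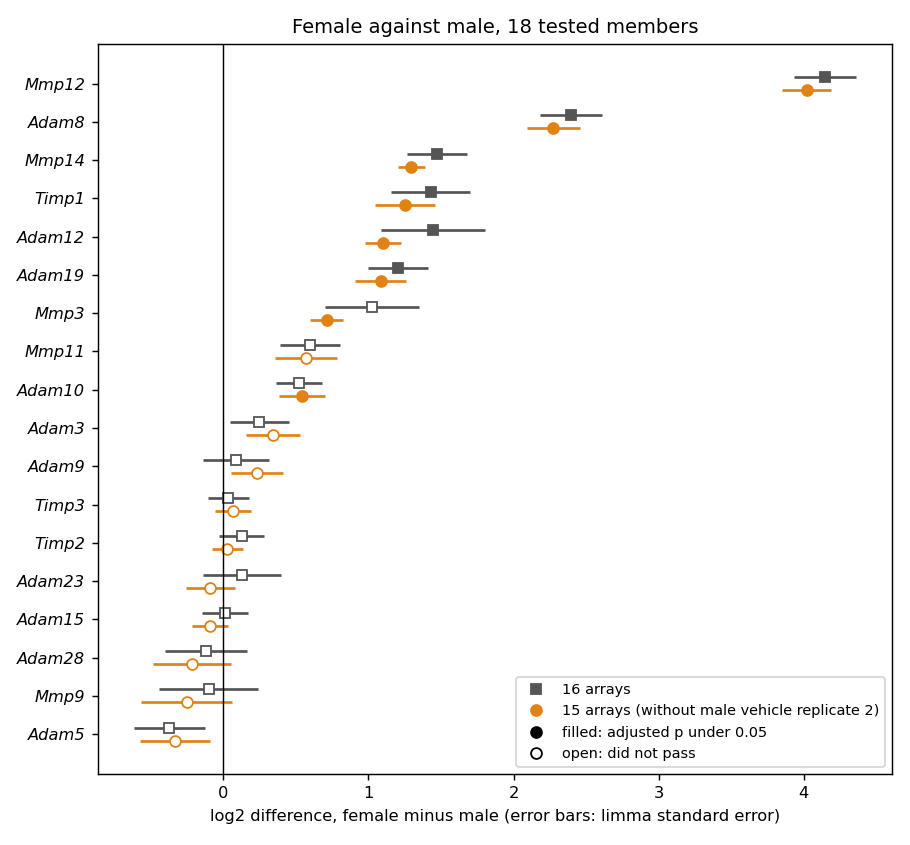
log2 difference between female and male fat (horizontal axis, female minus male) for the 18 tested genes, with limma's standard error as bars. Grey squares are fits to 16 arrays and orange circles to 15, and filled symbols passed an adjusted p under 0.05. Mmp12 lies at 4.15 and 4.02, and Adam5 at -0.37 and -0.33.

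Among the secreted enzymes, Mmp12, the macrophage elastase that cuts elastin, differed most. Its signal had a lowest value of 2168, a median of 2819 and a highest value of 3251 on the 8 female arrays, against 106.8, 129.8 and 462.2 on 7 male arrays and 65.9 on male vehicle replicate 2. The groups did not overlap, and the lowest female array lay well above the male array at 1 h, the highest of its sex. Female minus male was 4.15 ± 0.21 on the log2 scale (SE, 16 arrays, 17.7-fold, limma adjusted p = 1.1e-06) and 4.02 ± 0.17 with 15 arrays (16.2-fold, adjusted p = 6.1e-08). This was the second largest positive difference of all 5686 genes with 16 arrays. The fold is on the log2(signal + 16) scale, which understates changes at low signal.

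The probe set of Mmp12 used here is of a kind (suffix _r) for which the array's rules of probe selection had been relaxed, so its other probe set was read too. That one gave signals of 554.3 to 975.2 on female arrays, against 48.2 to 107.0 on 7 male arrays and 26.1 on male vehicle replicate 2. These ranges did not overlap either, although the male signals lay below the level required for testing. This probe set thus met that level only through its female arrays, and its difference is given as a description. Its log2 difference was 3.17 ± 0.23 (SE, 16 arrays) and 2.99 ± 0.15 (15 arrays), smaller than with the first probe set and in the same direction.

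Mmp3, or stromelysin-1, cuts proteoglycans and activates other Mmp precursors. It had signals of 288.5, 401.6 and 499.7 (lowest, median, highest) on the 8 female arrays, against 209.6, 236.8 and 272.8 on 7 male arrays and 32.2 on male vehicle replicate 2. Every female array was above every male array. The difference passed the test only without male vehicle replicate 2, at 0.71 ± 0.11 (SE, 1.64-fold, limma adjusted p = 0.00117), and with that array it was 1.02 ± 0.32 (limma adjusted p = 0.0950).

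Other secreted enzymes did not pass. Mmp11, or stromelysin-3, ranged from 109.2 to 220.2 on female arrays and from 60.2 to 187.8 on 7 male arrays, with a log2 difference of 0.60 ± 0.20 (SE, 16 arrays, limma adjusted p = 0.122). The ranges overlapped, and the highest male value was that of vehicle replicate 1. Mmp9, gelatinase B, differed by -0.10 ± 0.34 (SE, 16 arrays, limma adjusted p = 0.907) and is described with the DHT response.

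Mmp14, a membrane-anchored enzyme that cuts fibrillar collagen and activates the precursor of Mmp2, had signals of 3660, 5006 and 6598 (lowest, median, highest) on the 8 female arrays. The 7 male arrays had 1833, 2002 and 2201, and male vehicle replicate 2 had 711.5. The female values spread over a wider range than the 7 male values, and the groups did not overlap. Female minus male was 1.47 ± 0.21 (SE, 16 arrays, 2.78-fold, limma adjusted p = 0.00159) and 1.30 ± 0.09 with 15 arrays (2.45-fold, adjusted p = 2.5e-06).

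Of the 3 inhibitors, Timp1 alone passed the test. Timp1, a soluble inhibitor of most secreted Mmp enzymes, had signals of 1740, 2455 and 3992 (lowest, median, highest) on female arrays, against 635.6, 1091 and 1474 on 7 male arrays and 395.4 on male vehicle replicate 2. The groups did not overlap, though female 24 h and male 18 h lay near each other. Its log2 difference was 1.43 ± 0.27 (SE, 16 arrays, 2.69-fold, limma adjusted p = 0.00915) and 1.25 ± 0.21 with 15 arrays (2.38-fold, adjusted p = 0.00147). The second Timp1 probe set, of the relaxed kind (suffix _r), had a mean signal of 19.6, below the required level. Its female and male signals overlapped, and it gives no second reading of the difference.

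The other inhibitors had overlapping ranges in the sexes. Timp2, which also helps Mmp14 to activate the Mmp2 precursor, averaged 1518 ± 230.3 (SD, n = 8) on female arrays and 1478 ± 220.6 (SD, n = 7) on male arrays without replicate 2 of vehicle. Timp3, which binds to the matrix and inhibits several Adam and Adamts enzymes too, averaged 2673 ± 463.5 (SD, n = 8) on female arrays and 2542 ± 381.0 (SD, n = 7) on those male arrays. With all 16 arrays the log2 differences were 0.13 ± 0.15 for Timp2 and 0.03 ± 0.14 for Timp3 (SE). The other Timp2 probe sets had mean signals of 27.8 and 11.2, below the required level. Whether the difference in Timp1 exceeds those in Timp2 and Timp3 was not tested.

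**Figure D2:**
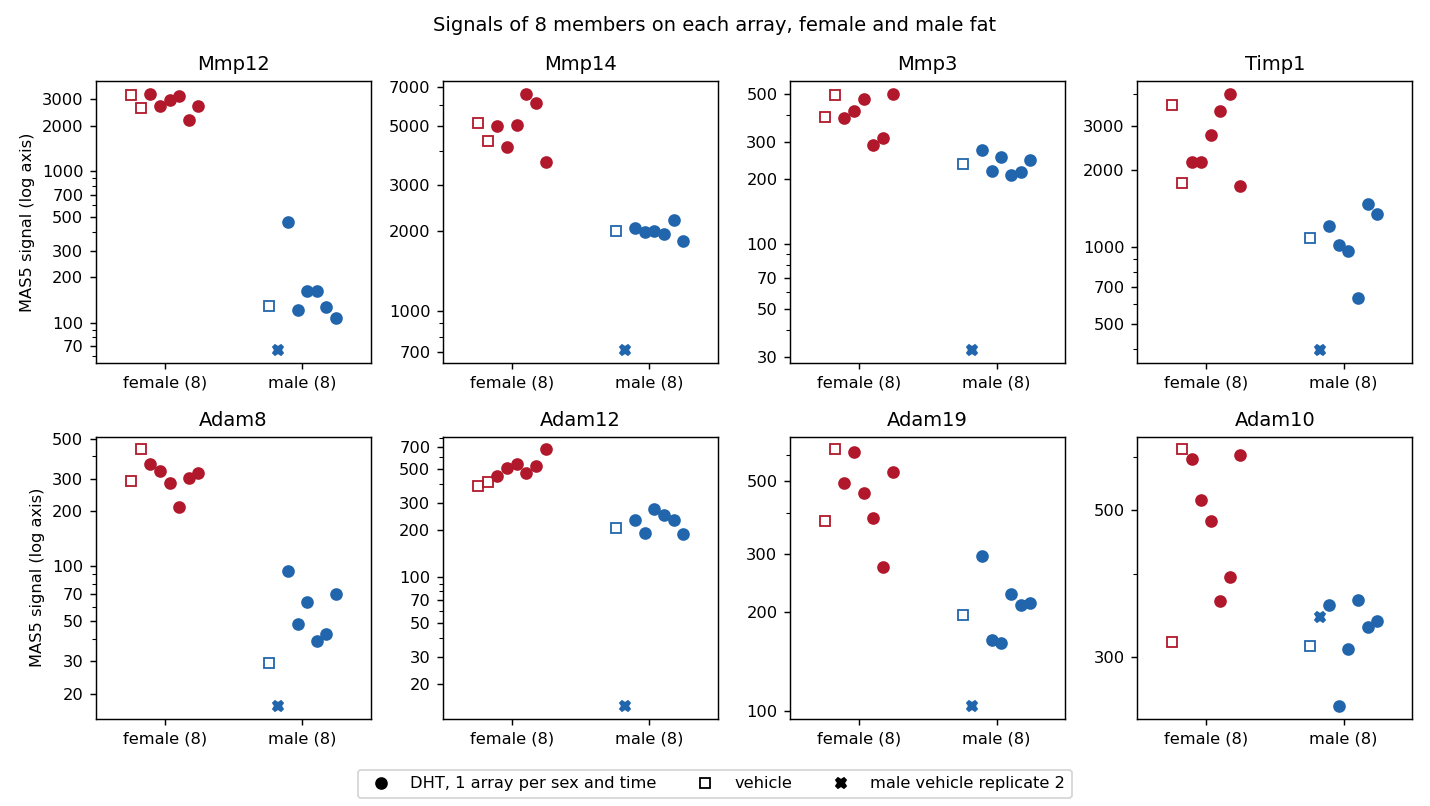
Signals (vertical log axes) of Mmp12, Mmp14, Mmp3, Timp1, Adam8, Adam12, Adam19 and Adam10 on each array, female arrays left and male arrays right. Filled circles are DHT arrays from 1 to 24 h, open squares vehicle arrays and the cross male vehicle replicate 2. Female and male arrays overlap in Adam19 and Adam10 and in none of the other 6 panels.

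Among the Adam genes, 3 passed with 16 arrays. Adam8, a sheddase of leukocytes, had signals of 210.4, 314.2 and 436.1 (lowest, median, highest) on female arrays, against 29.4, 48.0 and 93.8 on 7 male arrays and 17.2 on male vehicle replicate 2. No male array reached the lowest female array. All male signals lay below the level required for testing, so that the gene met it only through its female signals, and its difference is given as a description: 2.39 ± 0.21 on the log2 scale (SE, 16 arrays) and 2.27 ± 0.18 with 15 arrays. With no requirement on the signal the estimate is the same by construction, because each gene is fitted separately. In that fit, in which this selection plays no part, the limma adjusted p was 7.0e-05 (16 arrays).

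Adam12, or meltrin alpha, is made by mesenchymal cells and has been linked to adipocyte formation in mice. It had signals of 391.0, 492.2 and 673.7 (lowest, median, highest) on female arrays, against 190.0, 231.9 and 277.1 on 7 male arrays. Male vehicle replicate 2 had 14.4, far below all others, and the groups did not overlap. The log2 difference was 1.45 ± 0.36 (SE, 16 arrays, 2.73-fold, limma adjusted p = 0.0366) and 1.10 ± 0.12 with 15 arrays (2.15-fold, adjusted p = 9.3e-05). The call with 16 arrays was lost when any single DHT array or either female vehicle array was left out, with limma adjusted p-values up to 0.0909.

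Adam19, or meltrin beta, which sheds neuregulins, had signals of 275.1, 477.8 and 624.0 (lowest, median, highest) on female arrays. The male signals were 160.8, 209.9 and 295.4 on 7 arrays and 104.0 on male vehicle replicate 2, so that the female array at 18 h lay below the male array at 1 h. Its log2 difference was 1.20 ± 0.21 (SE, 16 arrays, 2.30-fold, limma adjusted p = 0.00517) and 1.09 ± 0.18 with 15 arrays (2.12-fold, adjusted p = 0.00118).

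Adam10, the sheddase that cuts Notch receptors, passed with the 15 arrays and not with all 16, and its probe sets disagreed. The probe set used differed by 0.52 ± 0.16 (SE, 16 arrays, limma adjusted p = 0.0814) and by 0.54 ± 0.16 with 15 arrays (1.46-fold, adjusted p = 0.0348). The other, also above the required level, differed by 0.15 ± 0.15 and 0.10 ± 0.14 (SE). In the probe set used, 6 of 7 conditions were higher in females.

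The remaining 6 Adam genes did not pass. Adam5, a sperm protein in mice, ranged from 871.4 to 2694 on female arrays and from 1377 to 2511 on 7 male arrays, with a log2 difference of -0.33 ± 0.24 (SE, 15 arrays). Its second probe set had a mean signal of 15.4, and that of Adam3, another sperm protein, 9.21, far from the 1623 and 448.6 of the probe sets used, so that neither gene's level is settled here. Adam28, known from lymphocytes, had a log2 difference of -0.12 ± 0.28 and Adam23, an Adam protein without protease activity, one of 0.13 ± 0.27 (SE, 16 arrays). Adam23 signals ran from 147.9 to 364.9 on female arrays and from 197.9 to 370.2 on 7 male arrays, with 65.2 on male vehicle replicate 2. For Adam9 and Adam15 the differences were 0.09 ± 0.23 and 0.01 ± 0.16 (SE, 16 arrays).

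The sex differences of 7 called genes were present in the vehicle arrays and at each time after DHT. For Mmp12 the female minus male log2 difference lay between 2.77 (at 1 h) and 4.46 (at 24 h) over the 7 conditions, with male vehicle replicate 1 as the male vehicle array. It lay between 1.79 and 3.04 for Adam8, between 0.99 and 1.75 for Mmp14, and between 0.87 and 1.74 for Adam12. For Timp1 it ran from 0.36 to 2.39, for Adam19 from 0.37 to 1.80 and for Mmp3 from 0.43 to 0.98. These 7 genes were higher in females in 7 of 7 conditions. They had been called on these same arrays, so this is a description and no separate support. Adam10, called with 15 arrays only, was higher in 6 of 7, with a difference of -0.002 at 12 h. Without overlap between all female and all male arrays were 6 of the 18 genes (Mmp12, Mmp14, Mmp3, Timp1, Adam8 and Adam12), against 3.46% of all tested genes with 16 arrays and 3.92% with 15. Adam8 met the required signal only through its female arrays, so its separation was favoured by that selection and does not count as support. None of the 18 lay below without overlap, against 0.915% and 2.83% of all genes.

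Markers of several cell types differed between the sexes as well. Among all tested genes, 4.63% were higher and 1.13% lower in females with 16 arrays, and 8.83% and 7.76% with 15. Of 13 macrophage markers on the array 12 were tested, and 3 were higher in females with 16 arrays and 9 with 15, with a median log2 difference of 0.71 and 0.42. Their summed signal was 25234 to 33834 on female arrays, against 18936 to 22627 on 7 male arrays and 5434 on male vehicle replicate 2. With 15 arrays, Cd53 had the largest difference of the macrophage list, at 0.89 ± 0.14 (SE), and Mmp12 and Adam8 differed by 4.02 and 2.27. None of the 3 tested neutrophil markers of 7 passed.

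Of 7 stromal fibroblast markers 5 were higher in females with 16 arrays and 6 with 15, among them Col1a2, a chain of type I collagen, with a log2 difference of 2.13 ± 0.10 (SE, 15 arrays). The stromal sums were 58233 to 93712 on female arrays, against 28560 to 33156 on 7 male arrays and 25795 on male vehicle replicate 2. All 4 smooth muscle markers were higher in females in both fits. With 15 arrays 2 of 3 tested B cell markers and 2 of 5 endothelial markers were also higher, 1 mesothelial marker of 3 was higher (Wt1) and 1 lower (Upk3b), and 5 of 13 skeletal muscle markers were lower in females. With 16 arrays, Wt1 alone of these passed. Wt1 (median 103.3 on 7 male arrays) and the smooth muscle marker Cnn1 (12.4 to 46.2) met the required signal only through their female arrays. Adipocyte sums were 51226 to 67033 on female arrays, against 65403 to 87343 on 7 male arrays, and 5 of 8 adipocyte markers were lower in females with 15 arrays and 0 with 16. Where 1 or 2 markers of a short list passed, they describe those genes and not a cell type. In bulk tissue fewer cells of a type and less RNA per cell cannot be told apart, and the part of these cell types in the metalloprotease differences was not tested.

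**Figure D3:**
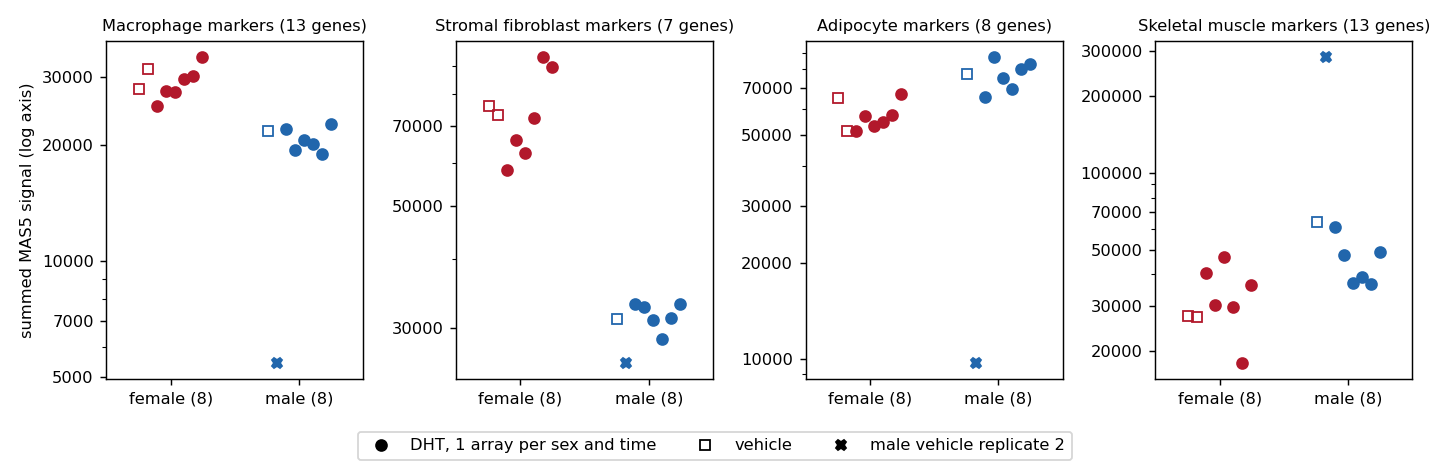
Summed signals (vertical log axes) of macrophage, stromal fibroblast, adipocyte and skeletal muscle markers on each array, female arrays left and male arrays right, with the same symbols as for single genes. Male vehicle replicate 2 has a muscle sum of 284690 and the lowest macrophage sum, 5434.

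Other genes of pericellular proteolysis and of its control were read from a list of 45 genes, 43 of them on the array and 36 tested. With 16 arrays 8 were higher and 1 lower in females, and with 15 arrays 10 and 3, with a median log2 difference of 0.08 and 0.04. The shares of all tested genes were 4.63% higher and 1.13% lower with 16 arrays and 8.83% and 7.76% with 15, so that the 3 lower of 36 lie near the background. Ctss, the elastin-cutting cathepsin S of phagocytes, was higher by 1.53 ± 0.20 (SE, 16 arrays). Lox, which crosslinks collagen, was higher by 1.11 ± 0.18, Serpinf1 by 1.04 ± 0.17 and Bmp1, which trims procollagen, by 0.98 ± 0.17 (SE, 16 arrays). Tfpi, Tfpi2, Plat (tissue plasminogen activator) and Ctsk (cathepsin K) were higher by 0.71 to 0.91. Tfpi and Tfpi2, with medians of 97.3 and 109 on 7 male arrays, met the required signal only through their female arrays. The count of 8 includes both. Pcsk6, a proprotein convertase, was lower, at -0.67 ± 0.14 (SE). The other lower genes with 15 arrays were Cst3, an inhibitor of cathepsins, and Notch1, a receptor cut by Adam10.

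No gene of the set passed the test for a response to DHT. Over all times, 0 of the 18 tested genes passed in either direction in limma, against 0.0703% of all tested genes with 16 arrays and 0.0879% with 15. At an unadjusted p under 0.05, 1 gene (Adam12) was counted with 16 arrays and 0 with 15, where the backgrounds were 5.10% and 3.06%. The median log2 change, DHT minus vehicle, was 0.18 for the 18 genes and 0.04 for all genes with 16 arrays, and 0.04 and 0.01 with 15. At each of the 6 times 0 of 18 passed with 16 arrays, where the background was 0% at 1, 18 and 24 h, 0.0176% at 3 h and 0.0528% at 6 and at 12 h.

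Several of the larger mean changes moved with male vehicle replicate 2. Adam12 had a log2 change of 0.97 ± 0.41 with 16 arrays (SE, limma adjusted p = 0.630) and 0.28 ± 0.15 with 15. The change of Mmp3 was 0.51 ± 0.37 with 16 arrays and -0.11 ± 0.14 with 15, and that of Adam23 0.53 ± 0.31 and 0.09 ± 0.21 (SE). Mmp9 had 0.66 ± 0.40 with 16 arrays and 0.35 ± 0.39 with 15, the largest positive change among the 18 genes without that array (SE). The 4 most negative changes with 16 arrays were those of Mmp11 (-0.22 ± 0.24), Adam28 (-0.20 ± 0.32), Adam5 (-0.05 ± 0.28) and Timp3 (-0.04 ± 0.16), and with 15 arrays the first 2 of these had -0.28 ± 0.26 and -0.40 ± 0.34 (SE). None of these changes passed. The macrophage markers moved with this array too, with a median log2 change of 0.41 over 16 arrays and -0.03 over 15, and their part in the changes was not tested.

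**Figure D4:**
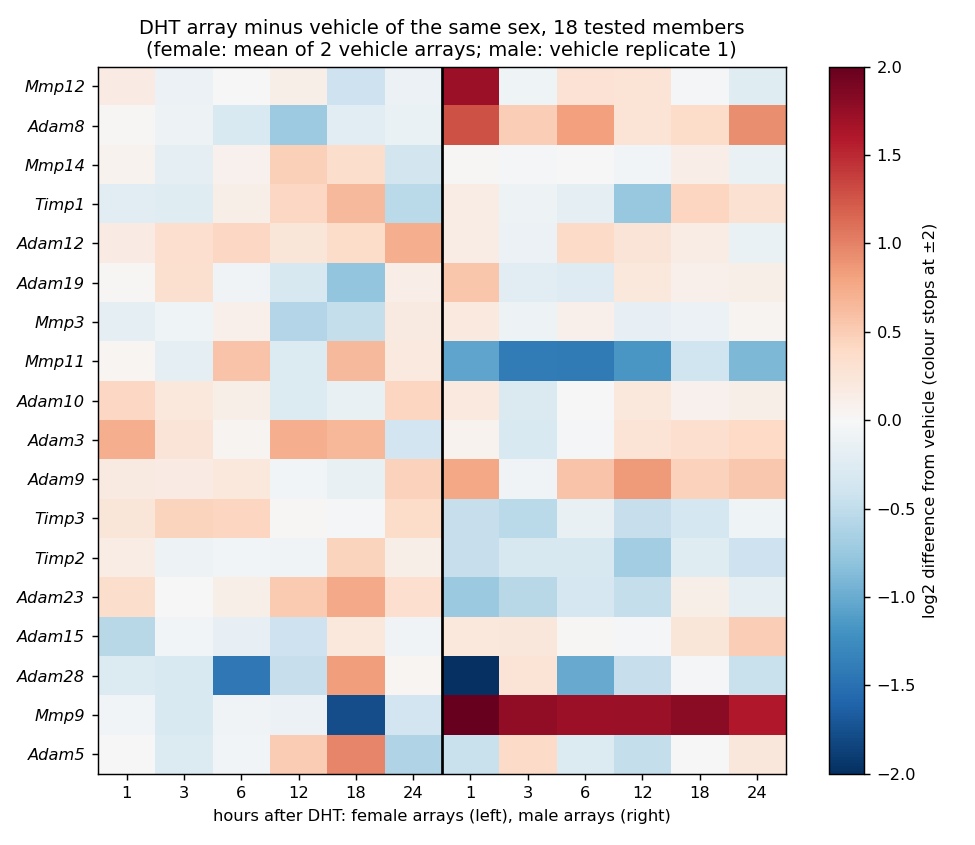
log2 difference of each DHT array from vehicle of the same sex for the 18 tested genes (rows), by hours after DHT (columns, female left, male right). Female arrays are set against the mean of 2 vehicle arrays and male arrays against vehicle replicate 1, and colours stop at ±2. The Mmp9 row is positive at all 6 male times (1.61 to 1.99) and negative at all 6 female times.

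Mmp9, gelatinase B, is made by neutrophils and macrophages among others, and its male arrays separated by treatment. In males its signals were 95.6 and 95.2 on the vehicle arrays, and 425.5, 365.3, 350.4, 351.6, 372.2 and 323.3 at the 6 times in order, from 1 to 24 h. All 6 male DHT arrays lay above both vehicle arrays. The vehicle arrays read nearly the same value, but replicate 2 is the muscle-rich array, so its match is no clean repeat of replicate 1. With both vehicle arrays the mean log2 difference in males was 1.77 (3.41-fold). Its exact two-sided permutation p, taken as double the one-sided value, was 0.0714. This is the smallest that this way of counting gives for 6 arrays against 2. Without replicate 2 a single male vehicle array remains, and against it the mean log2 difference was 1.77.

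In females the signals of Mmp9 were 258.5 and 379.7 on the vehicle arrays, and 300.8, 250.9, 299.3, 286.5, 79.9 and 235.5 from 1 to 24 h. The DHT and vehicle arrays overlapped, and the array at 18 h was far below the rest. The mean log2 difference in females was -0.45 (exact two-sided permutation p = 0.286). On vehicle both female arrays were above both male arrays, and after DHT all 6 female arrays were below all 6 male arrays. With the 12 DHT arrays alone, a setting chosen after seeing the data, female minus male was -0.66 ± 0.22 (SE, limma adjusted p = 0.0824).

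The difference between the responses, female minus male, was -2.22 ± 0.46 for Mmp9 (SE, 16 arrays). It had an unadjusted p of 0.000571 and an adjusted p of 0.594 in limma, and did not pass, nor with 15 arrays (-2.22 ± 0.53, adjusted p = 0.9996). Of the 18 genes 0 passed in either fit, where the background was also 0%, and at an unadjusted p under 0.05 there were 2 (Mmp9 and Adam8) with 16 arrays, where the background was 6.42%, and 3 with 15 arrays, where it was 2.87%. The third was Mmp11, in the opposite direction to Mmp9 and Adam8, at 1.22 ± 0.44 (SE, 15 arrays). Mmp9's second probe set had signals of 10.3 to 46.9, below the required level, and gives no second reading. The sums of the neutrophil markers were 1010 to 1273 on the male DHT arrays, 1161 on male vehicle replicate 1 and 774 on replicate 2, and their part in the Mmp9 values was not tested.

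**Figure D5:**
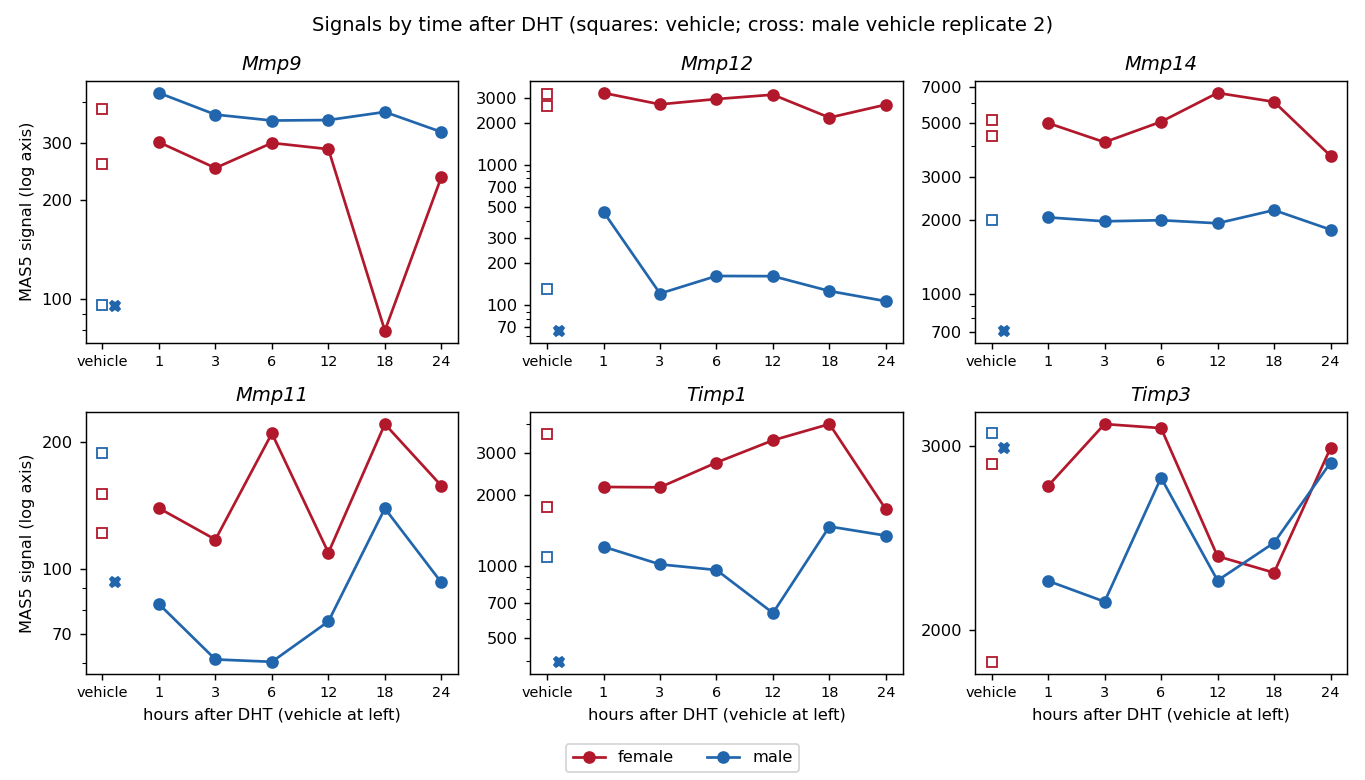
Signals (vertical log axes) of Mmp9, Mmp12, Mmp14, Mmp11, Timp1 and Timp3 by hours after DHT, with vehicle at the left of each panel, female in red and male in blue. Squares are vehicle arrays and the cross male vehicle replicate 2, drawn slightly to the right. Male Mmp9 is at 95.6 and 95.2 on vehicle and between 323.3 and 425.5 after DHT.

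Other genes separated by treatment within 1 sex. In males Adam8 had 29.4 and 17.2 on vehicle and 93.8, 48.0, 63.9, 38.7, 42.5 and 70.6 from 1 to 24 h, all 6 above vehicle but at low signal. Male Timp3 was 3089 and 2988 on vehicle and 2228, 2128, 2799, 2230, 2424 and 2894 from 1 to 24 h, all 6 below vehicle. In these male comparisons 2 of 18 genes were above (Mmp9 and Adam8) and 1 below (Timp3) without overlap, against 6.35% and 4.66% of all genes. In females Adam12 was 391.0 and 411.4 on vehicle and 449.7, 508.6, 537.3, 475.9, 523.4 and 673.7 from 1 to 24 h. It was the 1 of 18 genes above without overlap, with 0 below, where the backgrounds were 2.66% and 1.51%. Each of these had an exact permutation p of 0.0714, again double the one-sided value and the smallest this gives, among 36 such comparisons. The male comparisons and the male shares of all genes include male vehicle replicate 2. Against male vehicle replicate 1 alone, the mean log2 difference was 0.69 for Adam8 and -0.34 for Timp3.

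The male vehicle arrays disagreed for Mmp11. Its male signals were 187.8 and 93.0 on vehicle and 82.5, 61.0, 60.2, 75.1, 139.0 and 92.9 from 1 to 24 h. All 6 DHT arrays were below replicate 1, but not below replicate 2. In females the values were 150.7 and 121.4 on vehicle and 139.2, 117.3, 209.3, 109.2, 220.2 and 157.3 from 1 to 24 h, which overlap.

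Mmp12 had its highest male signal, 462.2, at 1 h after DHT, against 106.8 to 161.5 at the other times. On the other Mmp12 probe set, the same male array read 107.0, close to the 98.4 of male vehicle replicate 1. The change at 1 h over both sexes was 1.15 ± 0.37 (SE, 16 arrays, limma unadjusted p = 0.00963, adjusted p = 0.961) and did not pass.

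Late times (12, 18 and 24 h) were set against early times (1, 3 and 6 h), with 6 arrays each and no vehicle array in the difference. Here 0 of 18 genes passed in limma, against 0% of all genes with 16 arrays and 0.0352% with 15. At an unadjusted p under 0.05 there was 1 gene, Adam28, in both fits, where the background was 2.57% with 16 arrays and 7.16% with 15. Adam28 had a late minus early log2 change of 0.72 ± 0.32 (SE, 16 arrays), with signals of 382.7, 973.7 and 549.4 late and 442.8, 429.9 and 188.2 early in females, and of 558.0, 752.1 and 561.6 late and 166.2, 935.8 and 377.5 early in males. Late and early arrays overlapped in both sexes. The only Adam28 probe set is of the relaxed kind (suffix _r). The antisense control log2 signal, a technical measure, was 6.133 to 6.292 on early and 7.322 to 7.995 on late female arrays. On male arrays it was 6.305, 7.65 and 7.096 early and 7.118, 7.246 and 7.28 late. Adam28 and this measure were both highest at 3 h in males and at 18 h in females. Both were lowest at 1 h in males, but at different times in females. A fit to 15 arrays with this measure as a covariate also called 0 of the 18 genes between late and early times. Adam28 passed without the covariate in neither fit, so this count cannot show the measure's part in its change, which was not tested. The next positive late minus early changes were 0.38 ± 0.31 for Adam23, 0.26 ± 0.24 for Mmp11 and 0.21 ± 0.28 for Adam5 (SE, 16 arrays). At the other end were Mmp12 at -0.40 ± 0.25, Mmp9 at -0.37 ± 0.40, Adam8 at -0.28 ± 0.25 and Mmp3 at -0.19 ± 0.37 (SE, 16 arrays), none of which passed.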

How the data were processed

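The authors deposited 1 linear signal intensity per probe set and array, made with MAS5 per the submitters' processing notes (version not given). With 2% trimmed from either tail, the mean signal was 500 on all arrays, which makes each level relative to its array. Of 12488 probe sets, 66 were controls, and 396 with several gene symbols were not used. All 33 genes matched RefSeq (GRCm38.p6) by Entrez identifier. Genes with a geometric mean signal of at least 116.03 were tested with limma 3.58.1 in R 4.3.3 on log2(signal + 16), with sex and time as factors on all 16 arrays (8 residual degrees of freedom) and, for the difference of the responses, an added interaction of sex and DHT (7). eBayes used a trend. Tests were two-sided, with Benjamini-Hochberg adjustment over 5686 genes and a threshold of 0.05. The fit was tested on simulated data. Values after ± are standard errors for log2 differences and standard deviations for signals. Members and lists were chosen with earlier results of these data known. By a fixed rule, values are given for genes past the threshold, all Timp genes, all tested Mmp genes, the 5 with the highest mean signal and up to 4 of the largest changes each way between sexes, between late and early times, and for DHT overall.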

Additional observations from a re-analysis of the deposited data

Results flagged for a closer look

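Within each sex, the 8 signals of each of the 18 tested genes were searched for an extreme value whose gap to its nearest neighbour is a large share of the whole range (Dixon's criterion), in 36 sets, where chance alone marks about 1 in 20. On male vehicle replicate 2, signals far below the other male arrays were found for Adam12 (14.39, next 190.0), Mmp3 (32.15, next 209.6), Adam23 (65.21, next 197.9), Adam15 (346.5, next 532.8) and Mmp14 (711.5, next 1833). The summed muscle signal of this array was 284690, and its part in these values was not tested. The male array at 1 h had a high Mmp12 signal of 462.2 (next 161.5), and the male array at 3 h a low Adam10 signal of 253.8 (next 309.1). The female array at 18 h had a low Mmp9 signal of 79.9 (next 235.5).

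For Mmp9 every male DHT array lay above, and every female DHT array below, the mean vehicle value of its sex. The difference between the responses, female minus male, was -2.22 on the log2 scale and did not pass after adjustment in limma (adjusted p = 0.594).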

How the results depend on the processing

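Of 18 tested genes, 6 were called between female and male fat, and 5 to 9 over 24 alternatives (5 to 8 with 1 array left out, 9 with the 12 DHT arrays alone, the setting chosen after seeing the data). Mmp12, Mmp14, Timp1, Adam8 and Adam19 were called in 24 of 24, Adam12 in 8, Adam10 in 4, Mmp3 in 3 and Mmp11 in 2, and no called value reversed. Adam8 and Mmp11 met the required signal only through their female arrays. For DHT over all times, each time, and late against early times, 0 genes were called in each of 23 alternatives. These include a fit to 15 arrays with the antisense control signal as a covariate. For the sex difference of the response 0 were called, and 0 to 7 with 1 array left out. The 7 (Adam12, Mmp3, Mmp9, Adam23, Mmp14, Adam8 and Adam15, all lower, -2.63 to -0.99) came without male vehicle replicate 1, when the muscle-rich array is the single male vehicle array and is assumed to vary like the others. No paired analysis was possible because the labels number no replicates that pair the sexes or treatments. Low signals limit 15 genes, which were not tested.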

Other observations

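Values of 3 untested genes, chosen after their values were seen, are given here. Adam11, an Adam protein of the nervous system without protease activity, averaged 160.0 ± 34.1 (SD, n = 8) on female arrays and 81.2 ± 54.0 (SD, n = 7) on male arrays other than vehicle replicate 2, where it was 213.2. Female values ran from 121.0 to 222.9 and these male values from 36.3 to 166.4, so that they overlap. Mmp2, gelatinase A, whose precursor Mmp14 activates, averaged 86.0 ± 34.8 (SD, n = 8) on female arrays and 42.3 ± 26.3 (SD, n = 7) on the same male arrays, also with overlap, and its second probe set had a mean signal of 25.7. Adam17, the sheddase of tumour necrosis factor, ranged from 31.8 to 278.1 on female arrays and from 64.3 to 271.4 on these male arrays. None of these was tested for a difference.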
